A study of Homo sapiens with 6 samples.

Results

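The integrated stress response is the subject here, through 10 genes of its ATF4 and CHOP axis: ATF4, ATF5, DDIT3, TRIB3, CHAC1, SESN2, DDIT4, PPP1R15A, STC2 and VLDLR. They were taken by gene name from a table of 60671 genes, and all 10 were found. The values came from the glioblastoma line U87, of which 3 libraries had received 100 μM rutaecarpine, an alkaloid of Evodia rutaecarpa, and 3 had received the solvent alone, each for 48 h. Every library, treated or not, was exposed to 0.1% DMSO, and the labels place the dosing in medium without serum. The labels do not say whether the 3 libraries of a group came from separate cultures, so p values measure the spread between these libraries, which may be technical.

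In this response, a kinase that senses a stress phosphorylates the translation factor eIF2. Most protein synthesis then slows, while the mRNAs of a few factors, ATF4 and ATF5 among them, are translated more. ATF4 switches on genes of amino acid supply together with CHOP, the product of DDIT3, and the phosphatase subunit GADD34, the product of PPP1R15A, later removes the phosphate and lets translation resume. The response is known in gliomas from poor supply of nutrients or oxygen and from misfolded protein in the endoplasmic reticulum. RNA-Seq sees mRNA alone, so eIF2 phosphorylation and the translation of ATF4 were not measured.

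Values are TPM, a unit that corrects for transcript length and gives every library about the same total, so the levels of different genes can be set side by side. It keeps no read numbers, so depth is unknown. A TPM is a share, so more mRNA of one gene per cell and less mRNA of the other genes cannot be told apart. Groups were compared with limma on log2(TPM + 1) over the 14377 genes that reached 1 TPM in 3 or more libraries, with Benjamini-Hochberg adjustment over all of them. A gene is written as having risen at an adjusted p of at most 0.05, and as called where its log2 fold change was also above 1. Over all tested genes, control replicate 3 was unlike the other two controls, with a median log2(TPM + 1) of 3.56 against 3.95 to 3.97, so results that turn on it are given without it as well. The median log2 fold change over all tested genes was 0.08. Of the fixed markers of a glioma or mesenchymal cell line, vimentin (4430 to 7968 TPM), fibronectin and CD44 were abundant, whereas SOX2 and S100B did not exceed 0.25 TPM and GFAP lay between 3.48 and 5.41 TPM. Of the markers of other cell types, PTPRC, EPCAM, PECAM1, MBP and RBFOX3 did not exceed 1.61 TPM. CD68, a lysosomal protein of macrophages, was at 319 to 511 TPM. Vimentin, fibronectin, nestin and CD68 were lower and OLIG2 was higher after rutaecarpine at an adjusted p of at most 0.05, all with an absolute log2 fold change under 1.

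Of the 10 genes, 6 were called up after rutaecarpine, namely STC2, TRIB3, PPP1R15A, SESN2, DDIT3 and CHAC1, against 2.01% of all tested genes. ATF4 and DDIT4 also rose, with log2 fold changes under 1, so that 8 of the 10 rose, against 4.60% of all tested genes. ATF5 and VLDLR did not pass the test. By limma 0 of the 10 genes were called down, against 1.50% of all tested genes. At an adjusted p of at most 0.05 the count lower was 0, against 4.68%. At an unadjusted p under 0.05 by limma 0 of the 10 were lower, against 1584 of the 14377 tested genes. In all 10 genes every rutaecarpine library lay above every control library, which held for 19.3% of all tested genes. The median log2 fold change of the 10 genes was 1.52. The same 6 genes were called in each of the 6 fits that left out 1 library.

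**Figure D1:**
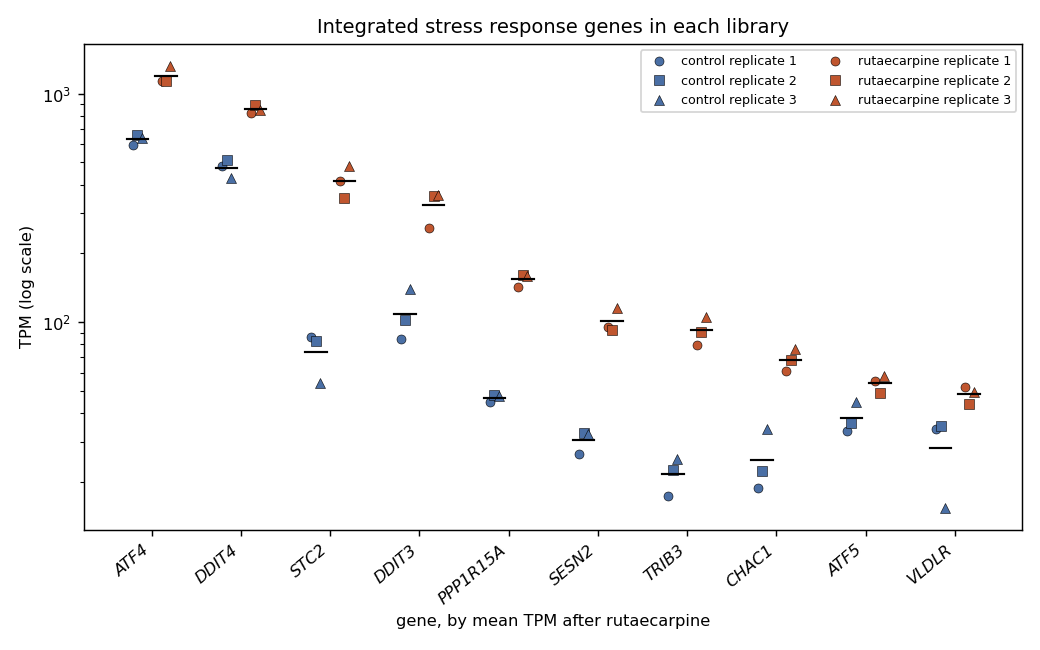
TPM (log axis) of the 10 genes in each of the 6 libraries, with control libraries in blue, rutaecarpine libraries in orange, 1 symbol per replicate number and a bar at each group mean (n = 3). The rutaecarpine libraries lie above the control libraries in every gene, and the gap between the groups is widest for STC2 (highest control 85.7, lowest rutaecarpine 348) and narrowest for ATF5 (44.6 and 49.0).

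The transcription factors come first. ATF4 (ENSG00000128272; GRCh38 chromosome 22, 39519695 to 39522685), the bZIP factor at the centre of the response, had 596, 659 and 641 TPM in control replicates 1 to 3 and 1139, 1129.8 and 1319 TPM in rutaecarpine replicates 1 to 3. Its control libraries spread by only 5.09% of their mean. The log2 fold change of ATF4 was 0.92 (SE, the standard error, 0.09, 95% confidence interval 0.71 to 1.13, adjusted p = 0.00155 by limma with Benjamini-Hochberg adjustment), which is 1.89 times the control mean. ATF4 was the most abundant of the 10 genes in both groups, and ranked 212 among all tested genes by control level and 120 by level after rutaecarpine. The 4 ATF4 pseudogenes of the table that share its name did not exceed 0.41 TPM.

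DDIT3 (ENSG00000175197; chromosome 12, 57516588 to 57521737, minus strand) encodes CHOP, a bZIP factor that ATF4 induces and that takes part in the death of cells under lasting stress. Its TPM were 83.9, 102 and 139.9 in the controls and 259, 358 and 361 after rutaecarpine. The control values were uneven, with replicate 3 the highest, and the first rutaecarpine library was lower than the other two. The log2 fold change of DDIT3 was 1.59 (SE 0.21, adjusted p = 0.00526 by limma with Benjamini-Hochberg adjustment) and 1.79 without control replicate 3. The difference in change between DDIT3 and ATF4 was not tested, and the ratio of their TPM within a library was 0.141 to 0.218 in the controls and 0.227 to 0.317 after rutaecarpine, with little room between the groups. By its place DDIT3 is not free of its neighbour. In GENCODE release 29, 27.2% of its exon bases are also exon bases of the methionyl-tRNA synthetase gene MARS1 on the opposite strand, and whether reads were counted by strand is not given in the sources used here. MARS1 itself rose from 129 ± 8.30 to 251 ± 18.8 TPM (SD, n = 3). The TPM of DDIT3 were 0.702 to 1.040 times those of MARS1 in the controls and 1.001 to 1.561 times after rutaecarpine, so these ratios overlapped. What the reads of MARS1 add to DDIT3 was not tested.

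ATF5 (ENSG00000169136; chromosome 19, 49928702 to 49933935), a bZIP factor related to ATF4 and under a like translational control, had the smallest change of the 10. It had 33.3, 36.2 and 44.6 TPM in the controls and 55.2, 49.0 and 57.8 TPM after rutaecarpine. The groups did not overlap, but the highest control and the lowest rutaecarpine library were close. Its log2 fold change of 0.50 (95% confidence interval 0.19 to 0.82) had an adjusted p of 0.0650 by limma with Benjamini-Hochberg adjustment. Without control replicate 3 it was 0.62, with an adjusted p of 0.00539 by the same procedure. ATF5 shares 21.2% of its exon bases with NUP62 on the other strand, which had 36.1 to 43.0 TPM in the controls and 27.8 to 37.4 TPM after rutaecarpine.

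Of the outputs that feed back on the response, PPP1R15A (ENSG00000087074; chromosome 19, 48872392 to 48876057) was the most even. It encodes GADD34, which brings protein phosphatase 1 to phosphorylated eIF2. The controls held 44.9, 47.7 and 47.7 TPM and the rutaecarpine libraries 143, 161 and 159 TPM, so that the lowest rutaecarpine library was 2.99 times the highest control. The log2 fold change was 1.70 (SE 0.09, adjusted p = 0.000176 by limma with Benjamini-Hochberg adjustment), the smallest adjusted p among the 10 genes. It lay between 1.67 and 1.75 in the fits that left out 1 library.

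TRIB3 (ENSG00000101255; chromosome 20, 362835 to 397559) encodes a pseudokinase that ATF4 and CHOP induce and that holds ATF4 activity back. It was the least abundant of the 10 genes in the controls, at 17.3, 22.5 and 25.1 TPM, and reached 79.2, 90.9 and 106 TPM after rutaecarpine. The mean was 4.25 times that of the controls, with a log2 fold change of 2.04 (SE 0.17, adjusted p = 0.000874 by limma with Benjamini-Hochberg adjustment). In the order of control levels TRIB3, CHAC1, VLDLR and SESN2 overlapped from neighbour to neighbour. After rutaecarpine SESN2 and TRIB3 overlapped, and both lay above CHAC1, which lay above ATF5 and VLDLR.

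The metabolic outputs were next. CHAC1 (ENSG00000128965; chromosome 15, 40952962 to 40956519) encodes an enzyme that breaks down glutathione. It had 18.7, 22.2 and 34.2 TPM in the controls and 61.1, 67.9 and 76.2 TPM after rutaecarpine. The third control was the highest, as for DDIT3, and the log2 fold change moved from 1.45 (SE 0.22, adjusted p = 0.00781 by limma with Benjamini-Hochberg adjustment) to 1.69 without it.

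SESN2 and DDIT4 both encode stress proteins that restrain the growth kinase complex mTORC1, SESN2 as a sensor of leucine and DDIT4, also called REDD1, through the TSC complex. SESN2 (ENSG00000130766; chromosome 1, 28259527 to 28282491) had 26.5, 32.8 and 32.3 TPM in the controls and 94.8, 92.7 and 115 TPM after rutaecarpine. SESN2 rose by 1.69 on the log2 scale (SE 0.13, adjusted p = 0.000719 by limma with Benjamini-Hochberg adjustment). DDIT4 (ENSG00000168209; chromosome 10, 72273920 to 72276036) was far more abundant, at 481, 513 and 429 TPM in the controls and 824, 888 and 846 TPM after rutaecarpine. The rise of DDIT4 was smaller, at 0.85 on the log2 scale (95% confidence interval 0.64 to 1.05, adjusted p = 0.00191 by limma with Benjamini-Hochberg adjustment), and the intervals of the 2 genes do not overlap. An antisense gene covers 41.2% of the exon bases of DDIT4, but was listed at 0 in the controls and did not exceed 0.44 TPM after rutaecarpine.

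STC2 (ENSG00000113739; chromosome 5, 173314713 to 173329503, minus strand) encodes a secreted glycoprotein hormone that cells under endoplasmic reticulum stress make. It changed most of the 10 genes and ranked 33 among all tested genes by log2 fold change. Its TPM were 85.7, 82.6 and 54.1 in the controls and 413, 348 and 482 after rutaecarpine. The log2 fold change was 2.48 (SE 0.20, adjusted p = 0.000855 by limma with Benjamini-Hochberg adjustment) and 2.27 without control replicate 3, which was the lowest control. STC2 thereby moved from the fourth to the third place in the order of levels, and its range overlapped that of DDIT3 in both groups.

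VLDLR (ENSG00000147852; chromosome 9, 2621834 to 2660053), a receptor of lipoproteins and of reelin that ATF4 can induce, depended on 1 library. Its controls were 34.0, 35.0 and 15.4 TPM, and the rutaecarpine libraries 52.0, 43.8 and 49.3 TPM. With all 6 libraries the log2 fold change was 0.84 (95% confidence interval 0.14 to 1.54), with an adjusted p of 0.139 by limma with Benjamini-Hochberg adjustment. Without control replicate 3 it was 0.47, with an adjusted p of 0.0148 by the same procedure. The antisense gene VLDLR-AS1 covers 7.90% of its exon bases and lay between 0.75 and 2.75 TPM in all 6 libraries.

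**Figure D2:**
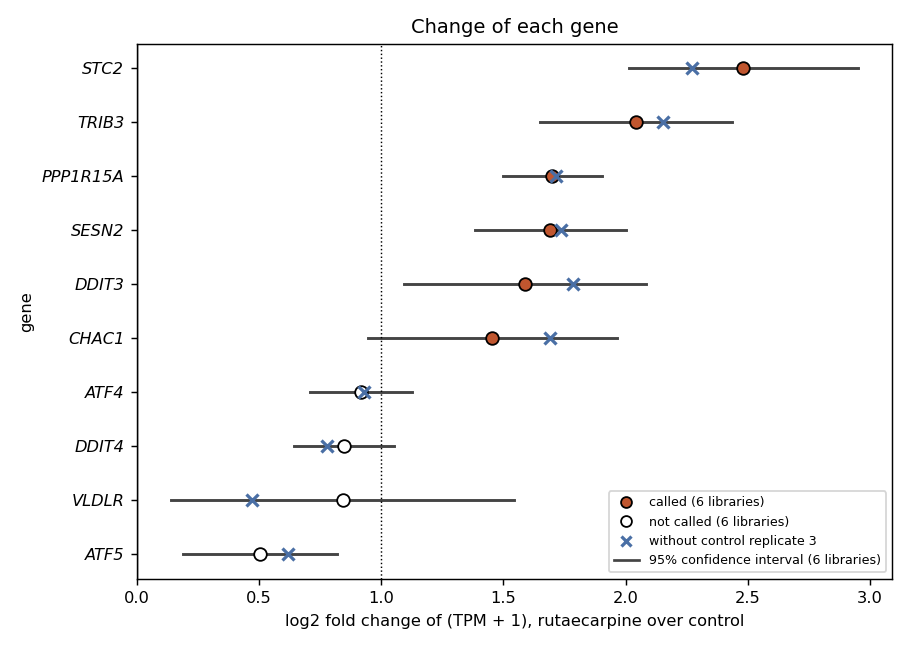
Log2 fold change of TPM + 1, rutaecarpine over control, for the 10 genes, with circles for the fit on 6 libraries, lines for its 95% confidence interval and crosses for the fit without control replicate 3. Filled circles mark the 6 called genes, from 1.45 for CHAC1 to 2.48 for STC2, and VLDLR moves most without that library (0.84 to 0.47).

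Control replicate 3 did not shift the 10 genes one way. Against the mean of the other 2 controls it held 1.67 times as much CHAC1 and 1.50 times as much DDIT3, but 0.447 times as much VLDLR and 0.643 times as much STC2. It also held more ATF5 (1.28 times) and TRIB3 (1.26 times) and less DDIT4 (0.863 times). ATF4, SESN2 and PPP1R15A in that library differed from the other controls by 1.02, 1.09 and 1.03 times.

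The close relatives of these genes were read as a comparison within each family. Among the 10 tested relatives and functional counterparts, 2 were higher and 3 lower at an unadjusted p under 0.05 by limma. Over all 14377 tested genes these counts were 1922 and 1584. At an adjusted p of at most 0.05 by limma the count of relatives was 0. That count rested on control replicate 3. Without it, 4 relatives fell (CHAC2, DDIT4L, GGCT and TRIB2) and 1 rose (TRIB1) at an adjusted p of at most 0.05 by limma. With library weights 5 fell and 2 rose, and all these changes had an absolute log2 fold change under 1. In both fits more genes were called down over all tested genes than with all 6 libraries. The share of all tested genes at that adjusted p in these fits is not given here. These counts are therefore not read as particular to the relatives. The median log2 fold change of the relatives was -0.12. PPP1R15B, which encodes the constitutive partner of the same phosphatase and was kept in another list, had 12.8, 12.7 and 6.74 TPM in the controls and 18.3, 15.3 and 18.1 TPM after rutaecarpine (adjusted p = 0.146 by limma with Benjamini-Hochberg adjustment). The level of PPP1R15A was 3.51, 3.76 and 7.07 times that of PPP1R15B in control replicates 1 to 3 and 7.81 to 10.5 times after rutaecarpine.

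TRIB2 was more abundant than TRIB3 in 2 of 3 controls, the exception being control replicate 3. TRIB3 was 0.481, 0.656 and 1.37 times TRIB2 in control replicates 1 to 3. After rutaecarpine TRIB3 was 3.44 to 4.11 times TRIB2. SESN2 was 3.62, 4.51 and 8.10 times SESN1 in control replicates 1 to 3 and 15.9 to 17.3 times after rutaecarpine. SESN1 itself had a log2 fold change of 0.0055. CHAC2, the second glutathione-degrading enzyme of that family, had 2.82, 4.65 and 3.00 TPM in the controls and 1.69, 1.19 and 1.67 TPM after rutaecarpine, with a log2 fold change of -0.82 and an adjusted p of 0.0615 by limma with Benjamini-Hochberg adjustment. CHAC1 and CHAC2 thus lay on opposite sides of their controls, although the CHAC2 difference did not pass the test with all 6 libraries. It passed without control replicate 3 (log2 fold change -0.89, adjusted p = 0.0362 by limma with Benjamini-Hochberg adjustment) but in no other fit that left out 1 library. LRP8, a relative of VLDLR, had 27.1, 26.7 and 11.02 TPM in the controls and 33.2, 26.1 and 37.6 TPM after rutaecarpine, with overlapping groups and a log2 fold change of 0.65 (95% confidence interval -0.15 to 1.44). STC1 was the more abundant stanniocalcin in every library. Its 95% confidence interval ran from 0.0076 to 1.21 on the log2 scale, but STC1 did not pass the test (adjusted p = 0.202 by limma with Benjamini-Hochberg adjustment). Control replicate 3, at 616 TPM, lay below control replicates 1 and 2 (1166 and 1182 TPM). STC2 moved from 0.0699 to 0.0879 times STC1 in the controls to 0.258 to 0.324 times after rutaecarpine.

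**Figure D3:**
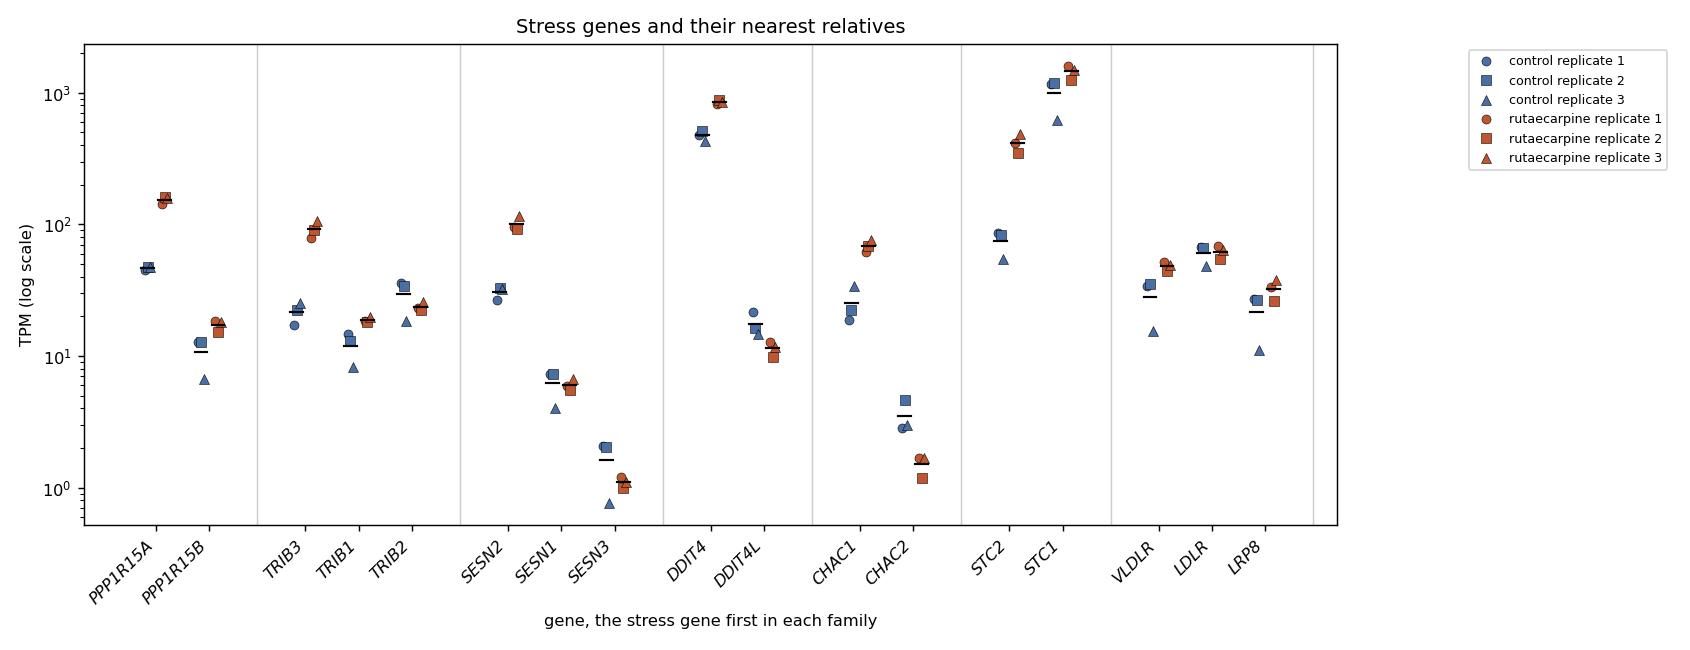
TPM (log axis) in each of the 6 libraries for 7 stress genes and their nearest relatives, with control libraries in blue, rutaecarpine libraries in orange, 1 symbol per replicate number and bars at the group means (n = 3). CHAC2 lies lower after rutaecarpine (1.19 to 1.69 TPM) than in the controls (2.82 to 4.65 TPM) while CHAC1 lies higher, and STC1 remains above STC2 in all libraries.

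The signalling machinery upstream of ATF4 was described next. For the counts in this and the later lists, 2.01% of all tested genes were called up and 1.50% down. At an unadjusted p under 0.05 by limma, 1922 of the 14377 tested genes were higher and 1584 lower. The 4 eIF2 kinases did not pass the test with all 6 libraries. EIF2AK3, which encodes PERK, the kinase of endoplasmic reticulum stress, had 21.1, 18.1 and 10.1 TPM in the controls and 20.2, 21.4 and 32.5 TPM after rutaecarpine, so its groups overlapped (log2 fold change 0.59, 95% confidence interval -0.11 to 1.28). EIF2AK4, or GCN2, the kinase of amino acid shortage, had 34.3 to 43.9 TPM in the controls and 30.6 to 32.1 TPM after rutaecarpine, a log2 fold change of -0.28 (adjusted p = 0.200 by limma with Benjamini-Hochberg adjustment). The values for EIF2AK4 without control replicate 3 were -0.36 and an adjusted p of 0.0366 by the same procedure. EIF2AK1 (HRI) and EIF2AK2 (PKR) had log2 fold changes of -0.05 and 0.09, and the sign of both depended on the fit. Of the 10 kinases and their regulators only DNAJC3 was called, with 22.8 ± 7.32 TPM in the controls and 46.8 ± 5.34 TPM after rutaecarpine (SD, n = 3). DNAJC3 encodes an inhibitor of PERK, not an activator. Its log2 fold change was 1.06, but DNAJC3 was called in 0 of the 6 fits that left out 1 library, where the values ran from 0.77, without control replicate 3, to 1.21.

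Among the 12 genes of eIF2, its exchange factor eIF2B and its phosphatase, 0 were called by limma and 2 were higher at an unadjusted p under 0.05. EIF2S2, the beta subunit of eIF2, rose from 113 ± 2.08 to 172 ± 9.28 TPM (SD, n = 3), a log2 fold change of 0.60. With median centring EIF2S2 had a log2 fold change of 0.51 and an adjusted p of 0.0878 by limma with Benjamini-Hochberg adjustment. In that fit 0 of the 12 genes passed. The 5 eIF2B subunits did not pass the test, and the median of the list was 0.14.

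Of the bZIP partners of ATF4 and CHOP, 5 of 6 were tested, and CEBPA was listed at 0 in every library. The called genes were ATF3, a repressor and partner induced downstream of ATF4, CEBPG, the usual partner of ATF4 on amino acid genes, and NFE2L2, the factor of the oxidative stress response. ATF3 rose from 41.7, 31.7 and 33.4 TPM to 95.7, 78.4 and 106 TPM, a log2 fold change of 1.37. CEBPG rose from 20.6 ± 2.89 to 43.4 ± 2.60 TPM and NFE2L2 from 47.4 ± 6.43 to 108 ± 12.1 TPM (SD, n = 3). CEBPB rose by 0.94 on the log2 scale, and JDP2 had a log2 fold change of -0.05. The count was again 3 without control replicate 3, but CEBPG (log2 fold change 0.94) was not called and CEBPB (1.04) was. CEBPG was also not called with median centring, quantile normalization or library weights, where it still rose by 0.92 to 0.96.

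The amino acid genes under ATF4 form the longest of the lists. Of 21 genes of synthesis and transport, 9 were called up, against 2.01% of all tested genes. Another 5 rose with a log2 fold change of at most 1, and the median of the list was 0.85. Leaving out 1 library gave 5 to 9 called genes, 5 of them without rutaecarpine replicate 3 and 6 without rutaecarpine replicate 2. The largest changes were those of SLC7A11, the cystine importer, from 5.92 ± 2.77 to 22.2 ± 5.18 TPM, CTH, which makes cysteine from cystathionine, from 14.2 ± 2.79 to 50.4 ± 8.59 TPM, and SLC3A2, the heavy chain that SLC7A11 and SLC7A5 need, from 189 ± 45.3 to 594 ± 75.8 TPM (SD, n = 3). SLC7A11 was called in 2 of the 6 fits that left out 1 library, and CTH and SLC3A2 in all 6. ASNS, the asparagine synthetase, rose from 49.3, 70.1 and 61.2 TPM to 149.5, 166 and 168 TPM. CBS, SLC7A5, ALDH1L2, PSAT1 and MTHFD2 were also called, with log2 fold changes from 1.01 to 1.40, ALDH1L2 in 2 of the 6 fits and MTHFD2 in 3. The proline synthesis genes PYCR1 and ALDH18A1 were the only 2 of the 21 with negative log2 fold changes, at -0.31 and -0.19, and neither passed the test.

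Of 12 aminoacyl-tRNA synthetases and the tRNA exporter XPOT, all 13 had positive log2 fold changes, between 0.33 and 1.22. In 12 every rutaecarpine library lay above every control library, which held for 19.3% of all tested genes. Only WARS1, the tryptophanyl-tRNA synthetase, was called, with a rise from 136 ± 12.0 to 318 ± 18.7 TPM (SD, n = 3), and 9 more rose by at most 1 on the log2 scale. EPRS1, LARS1 and XPOT did not pass.

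Of 8 other tested outputs of ATF4, 2 were called up, against 2.01% of all tested genes. GDF15, a secreted stress cytokine, rose from 81.3, 101 and 144 TPM to 331, 447 and 440.3 TPM, a log2 fold change of 1.92. ADM2, a peptide hormone, rose from 0.47 ± 0.14 to 2.90 ± 0.33 TPM, and its fold change on the log2(TPM + 1) scale, 1.41, understates a change at this level. Its controls (0.31, 0.56 and 0.54 TPM) all lay under 1 TPM, so it passed the filter only through the rutaecarpine libraries. With 1 TPM required in every library ADM2 was not tested, and 1 of these outputs was called. FGF21 did not exceed 0.39 TPM and was not tested.

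Genes linked to CHOP in cell death had smaller changes than CHOP itself. Of 7 tested genes, 0 were called by limma, and 3 were higher at an unadjusted p under 0.05. These were TNFRSF10B, the death receptor DR5, with 63.6 ± 13.7 TPM in the controls and 117 ± 14.9 TPM after rutaecarpine, PMAIP1 (NOXA), with 20.6 ± 2.96 and 33.6 ± 2.96 TPM, and GADD45A, with 57.0 ± 3.41 and 90.3 ± 12.7 TPM (SD, n = 3), and all 3 had a log2 fold change under 1 and an adjusted p of at most 0.05. This call was not firm, since 0 of the 3 reached that threshold without control replicate 1, rutaecarpine replicate 2 or rutaecarpine replicate 3, and 3 did without control replicate 3. BBC3, BCL2L11 and BCL2 had log2 fold changes between -0.22 and -0.01. TNFRSF10A, the other death receptor of the list, did not exceed 0.67 TPM. Of 13 autophagy genes MAP1LC3B was called, with a log2 fold change of 1.06 (75.1 ± 7.71 to 157 ± 10.5 TPM), and SQSTM1 and ULK1 rose by 0.52 and 0.65. Without control replicate 3 the log2 fold change of MAP1LC3B was 0.997, and 0 of the 13 genes were called by limma.

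In the list of mTORC1, the complex that SESN2 and DDIT4 restrain, and its control, 2 of 14 genes were called up, against 2.01% of all tested genes. RPTOR, the scaffold of mTORC1, rose from 22.9 ± 2.47 to 47.8 ± 6.70 TPM (log2 fold change 1.02, called in 3 of the 6 fits that left out 1 library). CASTOR1, a sensor of arginine that restrains mTORC1, rose from 8.53, 9.14 and 8.95 TPM to 20.6, 19.4 and 20.8 TPM (log2 fold change 1.11, called in all 6). Without control replicate 3, RPTOR had a log2 fold change of 0.94 and was not called. The median of the list was 0.09.

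The other arms of the unfolded protein response, which run through IRE1 and ATF6, were counted for comparison. Whether the genes listed for these arms also respond through eIF2 and ATF4 was not tested, so their counts are not independent of that branch. The promoter of HERPUD1, for 1, holds the core that ATF4 and C/EBP factors share, at -176 from the transcription start. Of 15 genes 7 were called up, against 2.01% of all tested genes: HSPA5 (BiP), DNAJB9, HYOU1, HERPUD1, MANF, ERN1 and SDF2L1. HSPA5, the main chaperone of the endoplasmic reticulum, rose from 275, 291 and 230 TPM to 859, 1142 and 1132 TPM, a log2 fold change of 1.97. ERN1, which encodes IRE1, rose from 4.74 ± 0.86 to 14.2 ± 2.47 TPM and XBP1, its target, from 106 ± 6.32 to 199 ± 19.8 TPM (SD, n = 3), whereas ATF6 had a log2 fold change of 0.12. The median of this list was 1.08, beside 1.52 for the 10 genes and 0.08 for all tested genes. Over the 11 lists, 26 of 128 tested genes were called up and 0 down by limma, against 2.01% and 1.50% of all tested genes. At an unadjusted p under 0.05 by limma 5 were lower, against 1584 of all 14377 tested genes. Without control replicate 3, 23 were called up.

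**Figure D4:**
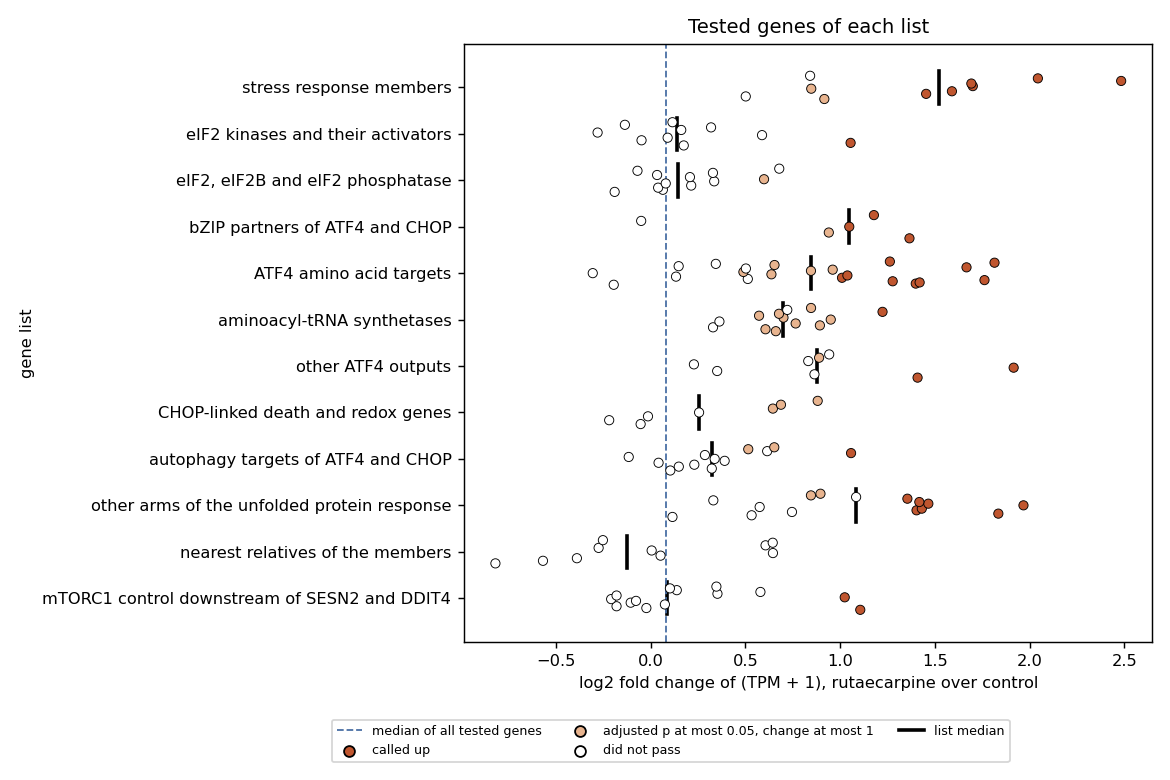
Log2 fold change of TPM + 1, rutaecarpine over control, of each tested gene in the 10-gene set and the 11 lists, with bars at the list medians and a dashed line at the median of all tested genes (0.08). Filled points are called genes, pale points passed the adjusted p alone and open points did not pass, and the amino acid targets (9 of 21) and the other arms of the unfolded protein response (7 of 15) hold 16 of the 26 called genes of the lists.

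Promoter sequence is shown where a motif of these pathways fell within 250 bases before to 50 bases after a transcription start. All 10 genes, with 16 starts, were matched in RefSeq promoters of GRCh38.p14, as were 24 of the 26 called genes of the lists (not ALDH1L2 and SLC7A11). The motifs were searched on both strands. Some RefSeq starts lie inside the GENCODE bounds given above, as for the windows of CHAC1 and STC2 below. TGATGNAA, the core that ATF4 and C/EBP factors share, was found for 1 of the 10 genes, CHAC1, for 5 of the 24 called list genes and for 19 of all 108 list genes matched, called or not, beside 4.46% of all 27305 genes. No other searched motif overlaps it in the windows below. The 4 list genes shown are those with this motif upstream of the start. Capitals mark the motif, each window is written 5′ to 3′ on the strand of its gene, and the position gives its first base relative to the start.
CHAC1 at -209 (chr15:40953251-40953280, plus strand): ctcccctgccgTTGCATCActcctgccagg
HERPUD1 at -176 (chr16:56931955-56931984, plus strand): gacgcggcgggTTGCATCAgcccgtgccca
CEBPG at -42 (chr19:33374060-33374089, plus strand): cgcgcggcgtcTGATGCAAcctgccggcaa
ASNS at -68 (chr7:97872458-97872487, minus strand): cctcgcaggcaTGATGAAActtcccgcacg
ATF3 at -191 (chr1:212565205-212565234, plus strand): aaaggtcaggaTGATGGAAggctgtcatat

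In CHAC1 and HERPUD1 the motif lies on the strand opposite to the gene, and both windows hold the same 8 bases. Only 1 of the 10 genes held TGACGTCA, the cyclic AMP response element that CREB and ATF proteins bind, beside 2.25% of all genes. Only 1 held the core of the dioxin response element, TNGCGTG, through which the aryl hydrocarbon receptor acts, as did 3 of the 24 called and 14 of the 108 list genes, beside 6.69% of all genes. The endoplasmic reticulum stress element was found in 0 of the 10, in 1 of the 24 called list genes (HSPA5) and in 4 of the 108 list genes. It was found in 0.0916% of all genes. The windows for PPP1R15A and STC2, the genes with the smallest adjusted p and the largest change, are these.
PPP1R15A, cyclic AMP response element at -58 (chr19:48872352-48872381, plus strand): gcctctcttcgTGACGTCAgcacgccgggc
STC2, dioxin response element core at -231 (chr5:173328627-173328656, minus strand): tcatacacacgCACGCAAacgcgtggccgc

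Outside the lists, the genes whose profile over the 6 libraries lay closest to that of ATF4 were RNF185, ABRACL and LINC00900. The measure was the root mean square difference of log2(TPM + 1), with each gene centred on its own mean, and was 0.05 for RNF185 and 0.06 for the other 2. RNF185, a ubiquitin ligase of the endoplasmic reticulum membrane, had 32.1, 34.5 and 32.4 TPM in the controls and 64.0, 60.4 and 75.2 TPM after rutaecarpine. LINC00900 had 0.43, 0.39 and 0.40 TPM in the controls and 1.59, 1.43 and 1.97 TPM after rutaecarpine. It passed the filter only through the rutaecarpine libraries, and its closeness to ATF4 depends on the added 1, which shrinks its change. For DDIT3 the closest were KLHDC7B, SPRR2D and PCDH1, at 0.14, 0.18 and 0.18, all 3 at low levels in the controls (0.56 to 3.70 TPM).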

How the data were processed

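RNA-Seq of U87 cells was analysed in 2 groups, 3 rutaecarpine and 3 control libraries, grouped by the sample titles. Sequencing by the authors used the Illumina NovaSeq platform and RSEM gave the gene values. The deposited unit is TPM, 1 column per library, with column sums between 990889 and 995734. The submitters' processing notes name GRCh38.p13, RSEM, DESeq2 and edgeR. The aligner, the annotation release and strand settings are not given in the sources used here. All value columns were matched to a sample.

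TPM are not counts, so limma version 3.58.1 in R 4.3.3 was run on log2(TPM + 1), with a mean-variance trend, two-sided, for genes that reached 1 TPM in 3 or more libraries. A call needed both an adjusted p of 0.05 or less and a log2 fold change beyond 1 in size. The added 1 shrinks the change of weakly expressed genes. A single gene with 3 against 3 libraries cannot reach an exact permutation p below 0.1, so the adjusted p draws on the variance shared between genes. With depth unknown, counting error is not given. The code was tested on simulated data. The 10 genes, the 11 pathway lists and the tests were chosen with earlier results of these data known. Named genes are the 10 genes, the 4 eIF2 kinases, called genes of each list (the 8 largest where more were called), the 2 largest changes of each list without calls, marker genes, and the 3 nearest profiles to ATF4 and DDIT3. Other list genes, such as MTHFD2, CEBPB, XBP1, PYCR1 and STC1, were named after their values were seen, as were MARS1, NUP62, the antisense genes and the pseudogenes. Positions and exon overlaps are from GENCODE release 29 on GRCh38. Python 3.11.15 with pandas 2.3.3 and matplotlib 3.10.9 was used for tables and figures.

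The alternatives were median centring, quantile normalization, no trend, library weights, 2 other filters, a pseudocount of 0.1, the replicate number as a block, an adjusted p of at most 0.001, and leaving out each library.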

Additional observations from a re-analysis of the deposited data

How the results depend on the processing

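All 10 genes kept a positive log2 fold change under every alternative run. The same 6 were called in each of them except at an adjusted p of at most 0.001, where 4 were called and DDIT3 and CHAC1 were not. At that threshold 4 pathway genes, 65 genes up and 29 genes down were called over all tested genes, against 26, 289 and 216 at 0.05. The amino acid targets then held 0 called genes, against 9, and the bZIP partners 0, against 3. The other arms of the unfolded protein response held 3, against 7. With the replicate number as a block, 6 of the 10 genes and 22 pathway genes were called, and 193 genes up and 125 down over all. The deviations of same-numbered libraries from their group means correlated at 0.12, -0.27 and -0.22 for replicates 1 to 3. The highest correlation was 0.39, between control replicate 3 and rutaecarpine replicate 2. Deviations within a group cancel out, so these values cannot decide whether equal numbers mark a shared culture. Leaving out 1 library at a time gave 19 to 25 pathway genes, 195 to 280 genes up and 153 to 330 genes down, the last without control replicate 3, which the library weights set lowest (0.121). ATF5 and VLDLR reached an adjusted p of at most 0.05 in limma with library weights (0.000748 and 0.0103), as did EIF2AK4, lower, with library weights (0.0134) and quantile normalization (0.0499). CHAC2 did so with median centring (0.0283), quantile normalization (0.0270), library weights (0.0106), no trend (0.0479) and the stricter filter (0.0447). Of the relatives, 3 passed with median centring, 4 with quantile normalization and 7 with library weights. The share of all tested genes that passed in these fits is not given here. Of the CHOP-linked genes, 0 passed with the block or without the filter. The amino acid targets and the other arms of the unfolded protein response had 7 called genes each with median centring, quantile normalization, library weights and no filter. At an adjusted p of at most 0.05 the amino acid targets numbered 8 and the synthetases 6 with the block, against 14 and 10. The log2 fold change of EIF2AK2 turned to -0.0031 with median centring, -0.012 with quantile normalization, -0.12 with library weights and -0.22 without control replicate 3, and that of EIF2AK1 to 0.06 without control replicate 1 and 0.11 without rutaecarpine replicate 2. Leaving out single libraries took EIF2AK1 from -0.15 to 0.11 and EIF2AK2 from -0.22 to 0.27. The cause was not tested. CEBPG (0.96, 0.95 and 0.92) and DNAJC3 (0.96, 0.95 and 0.82) were not called under median centring, quantile normalization or library weights. Median centring moved the median over the tested genes from 0.08 to -0.01 and gave 251 genes up and 295 down. With library weights 293 were up and 290 down, and with quantile normalization 260 and 282. What depth limits is unknown, since TPM keep no read numbers.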
